A study of Homo sapiens with 12 samples.

Results

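The genes described here encode proteins that start or restrain blood clotting and plasmin formation: F3 (tissue factor), TFPI, TFPI2, THBD (thrombomodulin), PLAU (urokinase), PLAUR (the urokinase receptor), PLAT (tissue-type plasminogen activator) and SERPINB2. They were chosen by symbol with earlier results of these data known, and every probe annotated to them was taken whatever its value. Counts of called probes beside the share of all probes are therefore descriptive. Of these 8 genes, 7 had a probe, with 12 probes in all among the 47320 of the array, whose annotation names 20045 genes. SERPINB2 was not analysed here. All 12 probes passed the filter on dim probes, but the 3 probes of TFPI and those of TFPI2 and PLAT passed through the BEAS-2B arrays alone.

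The study measured RNA of 2 human cell lines with an Illumina expression BeadChip on 12 arrays, 2 for each of 6 groups. THP-1 is a monocytic line from an acute leukaemia, and BEAS-2B is a line of virally immortalised bronchial epithelial cells. THP-1 cells received medium alone, or poultry dust extract at 0.1% for 1 or 3 h. BEAS-2B cells received medium alone, or the extract at 0.25% for 1 or 3 h, so line and dose cannot be told apart. All groups had been serum-starved overnight, and how long the control cells stayed in medium is not given in the sources used here. A 6 h treatment named in the design text was not analysed here. Nothing in the labels tells whether paired replicates came from different cultures. The p-values therefore reflect array-to-array spread, possibly of technical origin alone. Both times in a line were compared with the same 2 control arrays.

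Tissue factor is the membrane protein that binds factor VII and starts coagulation. TFPI inhibits that complex and factor Xa, and thrombomodulin turns thrombin towards activating protein C, which damps clotting. Urokinase, held at the cell by its receptor, and tissue-type plasminogen activator cut plasminogen into plasmin, which dissolves fibrin and degrades matrix, and TFPI2 is a matrix-bound inhibitor of plasmin. In the airway, monocytes and epithelial cells that make tissue factor and urokinase influence fibrin deposition and its clearance after injury.

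Stretches of 250 bases before a start listed by RefSeq are shown for 5 of the genes. The results separate F3, PLAU, PLAUR and TFPI2, each called higher after dust in at least 1 line, from TFPI. For TFPI no dust change was called. The sequences are those of the RefSeq table of build GRCh38.p14, which lists 5 of the 7 measured genes and has no entry for THBD or PLAT. They read 5′ to 3′ on the gene's own strand. Capitals mark matches, on either strand, to the AP-1 motif (TGANTCA) and, in TFPI2, also to the NF-kB consensus. The F3 window is chr1:94541760-94542009 (minus strand), that of PLAUR chr19:43670170-43670419 (minus), that of TFPI2 chr7:93890754-93891003 (minus), that of PLAU chr10:73910882-73911131 (plus) and that of TFPI chr2:187554436-187554685 (minus).
F3: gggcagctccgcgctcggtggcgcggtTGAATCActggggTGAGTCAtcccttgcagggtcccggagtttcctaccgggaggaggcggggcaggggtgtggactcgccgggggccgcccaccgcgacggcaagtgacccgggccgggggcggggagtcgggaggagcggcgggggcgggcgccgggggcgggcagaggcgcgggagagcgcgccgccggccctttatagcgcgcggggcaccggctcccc
PLAUR: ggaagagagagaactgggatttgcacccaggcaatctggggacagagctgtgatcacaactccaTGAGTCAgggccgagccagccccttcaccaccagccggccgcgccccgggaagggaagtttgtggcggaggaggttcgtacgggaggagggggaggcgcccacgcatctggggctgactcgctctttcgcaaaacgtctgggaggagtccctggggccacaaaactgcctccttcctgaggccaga
TFPI2: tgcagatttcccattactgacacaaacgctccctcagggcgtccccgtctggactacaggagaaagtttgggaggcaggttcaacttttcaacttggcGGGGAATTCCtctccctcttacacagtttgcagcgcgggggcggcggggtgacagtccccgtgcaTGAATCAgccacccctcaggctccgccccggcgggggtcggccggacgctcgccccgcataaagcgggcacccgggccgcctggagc
PLAU: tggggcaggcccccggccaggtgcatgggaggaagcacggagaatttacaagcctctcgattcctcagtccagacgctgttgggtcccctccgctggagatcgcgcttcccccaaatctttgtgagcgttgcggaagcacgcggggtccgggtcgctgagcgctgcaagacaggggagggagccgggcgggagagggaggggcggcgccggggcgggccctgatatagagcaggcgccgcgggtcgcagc
TFPI: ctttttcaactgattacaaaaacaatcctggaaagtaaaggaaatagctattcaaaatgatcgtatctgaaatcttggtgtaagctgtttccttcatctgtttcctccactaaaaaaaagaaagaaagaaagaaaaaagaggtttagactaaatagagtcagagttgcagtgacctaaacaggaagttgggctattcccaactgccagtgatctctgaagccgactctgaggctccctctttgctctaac

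The F3 window held 2 AP-1 matches, TGAATCA from 223 and TGAGTCA from 210 bases before the start. PLAUR held 1 at 186 bases and TFPI2 1 at 87 bases, and neither the PLAU nor the TFPI window held one. Of 35116 such windows in the table, 6.57% held an AP-1 match. The NF-kB consensus matched in TFPI2 alone among these, 152 bases before the start, against 9.96% of all windows. An EGR1 motif (GCGNGGGCG, in 8.42% of all windows) lay in F3, TFPI2 and PLAUR at 82, 118 and 90 bases before the start, and in F3 and TFPI2 it overlapped a GC box (GGGCGG, in 42.6% of all windows). F3 held 4 GC boxes, PLAU 3, TFPI2 2 and PLAUR none, and no CRE (TGACGTCA, in 1.65%) matched in any window. TFPI held none of the 5 motifs, and its GC content was 38.4%, against 78.0% in F3 and a median of 58.0% over all windows. A second PLAU window of the table, chr10:73910360-73910609, held no match either. Both PLAU windows lie inside the gene's span of 73908832 to 73917494, so the bases before that outer start were not searched. A match describes these letters and is no evidence of binding, and a missing match says only that these letters are not in the window.

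Between 14977 and 17045 probes per array were detected (detection p under 0.01), with a median signal of 76.3 to 84.3 and a median of 21 beads per probe. The 75th percentile of the signal was 126 and 127 on the THP-1 arrays after 3 h, against 144 to 181 on the other 10. Replicate arrays correlated at 0.984 to 0.995 over all kept probes (Pearson's r of log2 intensities), and none held identical signals. The THP-1 samples carry another line's name, A459, as their source, so the line was checked on markers. Of 11 measured monocyte markers 10 were detected on all 6 THP-1 arrays, and 8 on no BEAS-2B array, CD14, CD68 and LILRB1 being detected on all of those. All 10 epithelial markers were detected on every BEAS-2B array, and 9 on no THP-1 array, LAMB3 being the exception. Of 9 markers of the A549 lung line 5 were undetected on all 12 arrays, while AKR1C2, ALDH1A1 and NAPSA were detected on all 6 THP-1 arrays and AKR1C2 and CPS1 on all 6 BEAS-2B arrays. COL1A1, PDGFRB and THY1, of 8 fibroblast markers, were detected on every BEAS-2B array, PECAM1, of 8 endothelial ones, and NKG7, of 7 lymphocyte ones, on every THP-1 array. The mean level of the fibroblast list in BEAS-2B was 6.13 on the log2 scale in medium and 5.82 after 3 h, and its part in the results was not tested.

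The 2 BEAS-2B arrays after 3 h stood apart from each other at these genes. Replicate 1 exceeded replicate 2 by more than 0.5 on the log2 scale in 7 of the 12 probes (58.3%), against 6.22% of all 19045 kept probes, a limit chosen after the values were seen. The 7 are both F3 probes, THBD, PLAU, 2 of the 3 PLAUR probes and PLAT. At F3 probe ILMN_1797009 replicate 1 was 2.57-fold above replicate 2, at PLAU 1.71-fold and at PLAT 6.88-fold, on normalized intensity. The changes after 3 h that were called in this line are therefore given without that array too.

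**Figure D1:**
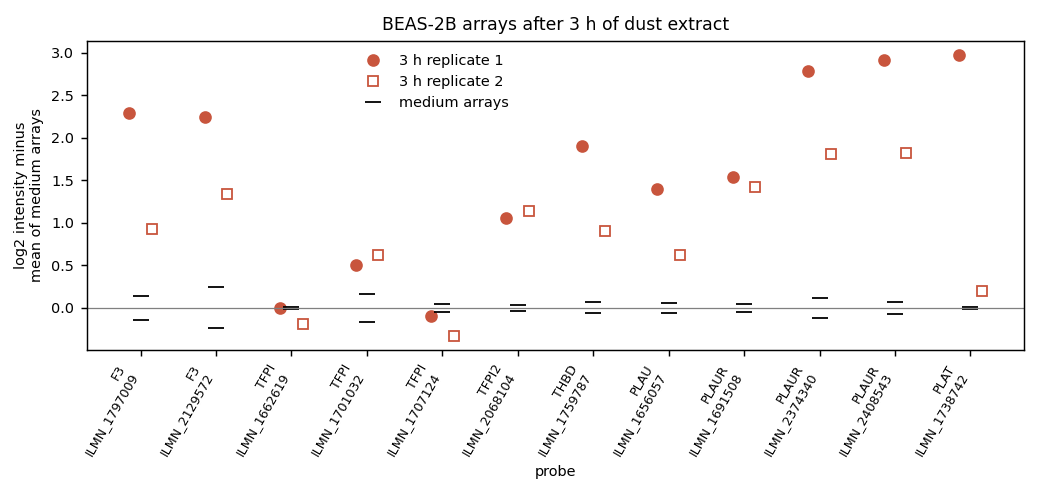
Log2 intensity on the 2 BEAS-2B arrays after 3 h of dust extract, as the difference from the mean of the 2 medium arrays (vertical axis), for each of the 12 probes (horizontal axis). Circles are replicate 1, squares replicate 2 and short lines the single medium arrays. The circle lies over 0.5 above the square in 7 probes, most widely at PLAT (10.20 against 7.42 in log2 intensity), while the 2 arrays lie close together at TFPI2 and at PLAUR probe ILMN_1691508.

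In medium, all 12 probes were detected on both BEAS-2B arrays and 7 on both THP-1 arrays, and these counts were the same in the 3 groups of each line. A difference was called where limma's Benjamini-Hochberg adjusted p, over all 19045 kept probes, was under 0.05. By this rule 8 probes of 5 genes (F3, TFPI, TFPI2, PLAU and PLAT) were higher in BEAS-2B than in THP-1 cells in medium and none was lower (9 had an unadjusted p under 0.05). Of all probes 32.8% were called higher in that comparison. Of the 8, the 5 probes of TFPI, TFPI2 and PLAT had passed the filter through BEAS-2B alone and so had to be higher there. Among the 7 member probes detected on all 12 arrays 3 were called (both of F3 and PLAU). The share called among all probes so detected is not given here.

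After 1 h of dust extract 1 probe, of F3, was called higher in THP-1 cells, against 1.24% of all probes, and 6 had an unadjusted p under 0.05. After 3 h 7 probes of 4 genes were called higher in THP-1 cells (F3, THBD, PLAU and PLAUR), against 19.4% of all probes. In BEAS-2B cells 6 probes of the same 4 genes were called higher after 1 h, against 1.09% of all probes. After 3 h 8 probes of 5 genes were called higher there, TFPI2 being added, against 3.33% of all probes. No probe was called lower in any of the 4 comparisons, against 26.0% of all probes in THP-1 and 2.26% in BEAS-2B cells after 3 h. The median log2 change of the 12 probes was 0.25 and 1.55 in THP-1 cells after 1 and 3 h, and 1.19 and 1.44 in BEAS-2B cells, while that of all probes lay between -0.05 and -0.03. The THP-1 medians include the probes of TFPI, TFPI2 and PLAT, which were undetected there in medium, so the medians of the lines are not comparable. A fall of those probes could not have been seen in THP-1 cells. The count after 1 h in BEAS-2B cells was 0 or 1 without control replicate 1 or 2, 2 or 1 without dust replicate 1 or 2, 1 where the lines were processed separately, and 3 without the filter on dim probes. The count after 3 h in that line was 4 without control replicate 1, 5 without control replicate 2 and 4 without dust replicate 1. In THP-1 cells after 1 h it was 0 without control replicate 2 or dust replicate 2, 2 without either THP-1 array after 3 h, and 4 without either BEAS-2B array after 3 h, which enter through the shared estimate of spread. In the direct comparison of 3 h with 1 h, 5 probes were higher at 3 h in THP-1 cells (THBD, PLAU and all 3 of PLAUR), against 16.8% of all probes. In BEAS-2B cells 2 were (TFPI2 and 1 of PLAUR), against 1.43% of all probes, and none without BEAS-2B 1 h replicate 1 or 2. That count was 1 without either THP-1 1 h array, either BEAS-2B control array or BEAS-2B 3 h replicate 1, and without the last 1 probe, of PLAU, was called lower.

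**Figure D2:**
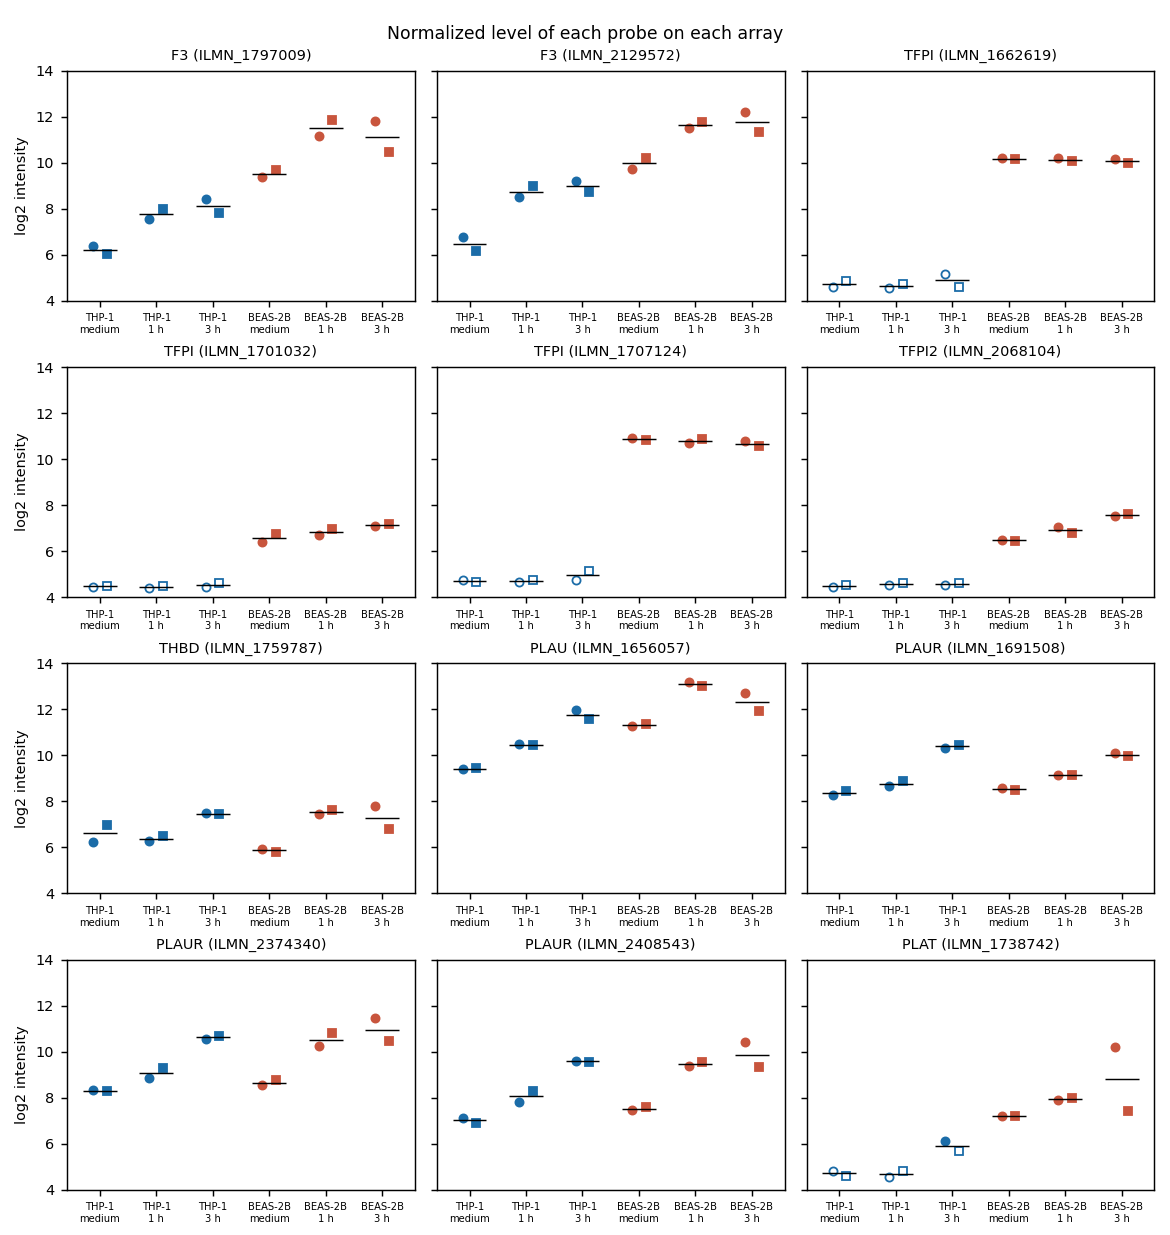
Normalized log2 intensity (vertical axes) of each of the 12 probes on each array, in the 6 groups of line and time (horizontal axes). Circles are replicate 1 and squares replicate 2, filled where the probe was detected and open where it was not, and lines are group means. TFPI and TFPI2 are detected on no THP-1 array, F3 is higher on every dust array than on any medium array of its line, and the PLAT point of BEAS-2B replicate 1 after 3 h (10.20) lies far above the rest.

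F3, which encodes tissue factor (chromosome 1, 94529173 to 94541759 in GRCh38.p14), was higher after dust in both lines, and the rise was already present at 1 h. At probe ILMN_2129572 the signal was 171.5 and 125.2 in THP-1 cells in medium, 363.2 and 542.3 after 1 h, then 456.1 and 344 after 3 h. BEAS-2B arrays gave 941.1 and 1479 in medium, 3165 and 3802 after 1 h, and 5123 and 2939 after 3 h. Every dust array lay above both medium arrays of its line. On normalized intensity 16.7% of all probes did so after 1 h in each line. After 3 h 29.7% did in THP-1 and 24.1% in BEAS-2B cells. The change of this F3 probe in THP-1 cells was 2.25 ± 0.33 (log2, SE) after 1 h, or 4.76-fold, with an adjusted p of 0.00481. It was 2.49 ± 0.33 after 3 h, with an adjusted p of 0.000128. In BEAS-2B cells it was 1.67 ± 0.33 after 1 h and 1.80 ± 0.33 after 3 h, with adjusted p of 0.0372 and 0.010.

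The second F3 probe, ILMN_1797009, gave 142.8 and 117.9 in THP-1 cells in medium, 215.7 and 307.2 after 1 h, and 278.1 and 206.4 after 3 h. Its signal in BEAS-2B cells was 765.5 and 1043 in medium, 2546 and 3999 after 1 h, and 4044 and 1650 after 3 h. All dust arrays again lay above both medium arrays. Its change was 1.56 ± 0.40 in THP-1 cells after 1 h, short of the threshold (adjusted p 0.100), and 1.91 ± 0.40 after 3 h (adjusted p 0.00269). In BEAS-2B cells it was 1.98 ± 0.40 and 1.61 ± 0.40 after 1 and 3 h, with adjusted p of 0.0455 and 0.0434.

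The rising order of the normalized F3 group means was the same at both probes up to the BEAS-2B dust groups: THP-1 in medium, THP-1 after 1 h, THP-1 after 3 h, BEAS-2B in medium, then BEAS-2B with dust. The deposited THP-1 signals of 1 and 3 h do not show that order. They overlapped, and the highest was that of a 1 h array at each probe (542.3 and 307.2). In medium BEAS-2B lay above THP-1 by 3.49 ± 0.33 (adjusted p 4.22e-06) and 3.33 ± 0.40 (3.06e-05) on the log2 scale. The step from 1 to 3 h was within the error in each line, at 0.24 ± 0.33 and 0.35 ± 0.40 in THP-1 cells (adjusted p 0.612 and 0.539) and at 0.13 ± 0.33 and -0.37 ± 0.40 in BEAS-2B cells (0.907 and 0.735). Without BEAS-2B 3 h replicate 1 the last 2 were -0.32 and -1.05 (adjusted p 0.754 and 0.188), and without replicate 2 they were 0.58 and 0.32. The call of ILMN_2129572 in THP-1 cells after 1 h was lost without control replicate 2 or dust replicate 2 (adjusted p up to 0.0643, change 1.95 at the least). Its call in BEAS-2B cells after 3 h was lost without control replicate 1 (adjusted p up to 0.116) or dust replicate 1 (1.35, adjusted p 0.0667), and after 1 h without any of the 4 BEAS-2B control and 1 h arrays or the 2 THP-1 control arrays (adjusted p up to 0.406). Without dust replicate 1 the change of ILMN_1797009 in BEAS-2B cells after 3 h was 0.93 (adjusted p 0.218). That call and the one after 1 h were also lost without any one of the control or 1 h arrays of either line (adjusted p up to 0.252 and 0.485). The BEAS-2B calls of both probes after 1 h, and of ILMN_1797009 after 3 h, were also lost with each line on its own, without the filter and with a replicate block (adjusted p up to 0.164). The 2 calls in THP-1 cells after 3 h held without any one array.

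TFPI, the inhibitor of the tissue factor complex (chromosome 2, 187464230 to 187554435), was measured in BEAS-2B cells and not well above background on any of the 6 THP-1 arrays. At probe ILMN_1707124 the BEAS-2B signal was 2045 and 2191 in medium, 1888 and 2157 after 1 h, and 1995 and 1764 after 3 h, against 67.9 to 81.58 on the THP-1 arrays. At ILMN_1662619 it was 1270 and 1432, 1367 and 1297, and 1313 and 1198, against 64.08 to 84.37. At ILMN_1701032 it was 142.9 and 184.5, 170.3 and 199.7, and 188 and 206.7, against 55.03 to 65.72. The first 2 probes carry the transcript accession NM_006287 and the last NM_001032281. TFPI was at least 36.7-fold, 22.5-fold and 1.85-fold higher in BEAS-2B than in THP-1 cells in medium at these probes (adjusted p 2.24e-10, 1.74e-09 and 6.44e-07), with the dim side set at the lowest detected signal of its arrays.

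No dust change of TFPI was called. In BEAS-2B cells after 3 h the first 2 probes gave -0.21 ± 0.16 and -0.10 ± 0.19. ILMN_1701032 gave 0.56 ± 0.16 with an adjusted p of 0.0634. Both dust arrays of ILMN_1701032 lay above both medium arrays, and both of ILMN_1707124 lay below. Of all probes 24.1% lay above and 33.1% below in this way. With a replicate block the adjusted p of ILMN_1701032 was 0.0391. The estimate at the dimmest probe thus lay above 0 and those at the other two below. The means of ILMN_1707124 in BEAS-2B cells were 10.88 ± 0.07 in medium, 10.78 ± 0.10 after 1 h and 10.67 ± 0.17 after 3 h (log2 intensity, SD, n = 2).

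TFPI2, the plasmin inhibitor (chromosome 7, 93885396 to 93890753), was also detected in BEAS-2B cells alone, and there it was higher after 3 h. Its signal was 148.5 and 158.8 in medium, 201.7 and 183.3 after 1 h, and 237.7 and 259.9 after 3 h, with no overlap between the 3 groups. On the THP-1 arrays it lay between 59.23 and 68.48, below detection. The BEAS-2B change was 0.46 ± 0.14 after 1 h (adjusted p 0.280) and 1.10 ± 0.14 after 3 h, or 2.14-fold (adjusted p 0.00116). The latter held without either 3 h array, at 1.14 and 1.06. The step from 1 to 3 h was 0.64 ± 0.14 (adjusted p 0.0343). That call was lost without any one of 8 arrays, which are the 6 of BEAS-2B and the THP-1 1 h pair (adjusted p up to 0.244), and under scaling to a common median (0.0856). In medium TFPI2 was at least 1.72-fold higher in BEAS-2B than in THP-1 cells (adjusted p 3.51e-07).

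THBD, which encodes thrombomodulin (chromosome 20, 23045633 to 23049672), was low in both lines and higher after dust in BEAS-2B cells. Its signal there was 117 and 119.4 in medium, 252.6 and 281.9 after 1 h, and 276.6 and 168.7 after 3 h. Every dust array lay above both medium arrays. The change was 1.65 ± 0.30 after 1 h (adjusted p 0.0250) and 1.40 ± 0.30 after 3 h (0.0227). In THP-1 cells the signal was 136 and 178.8 in medium, 121.6 and 144.8 after 1 h, then 173.4 and 172.3 after 3 h. The deposited signals after 3 h thus lay inside the range of the control arrays, while the quantile-normalized levels (7.48 and 7.45 against 6.25 and 6.96 in log2 intensity) lay above it. The fitted THP-1 change was -0.23 ± 0.30 after 1 h (adjusted p 0.859) and 0.86 ± 0.30 after 3 h (0.0373), and 1.08 ± 0.30 from 1 to 3 h (0.0149).

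The THP-1 call of THBD depended on the scaling. With scaling to a common median the change after 3 h was 0.38 (adjusted p 0.315) and the step from 1 to 3 h was no longer called (0.0795). That scaling moved the median change of all probes after 3 h in THP-1 cells from -0.05 to -0.30. Under it the other probes called there gave 2.01 and 1.42 (F3), 2.28 (PLAU) and 1.71 to 2.13 (PLAUR), and stayed called. The THBD call after 3 h in THP-1 cells was also lost without control replicate 1, either dust replicate of that time, or any of the 4 BEAS-2B arrays of medium or 1 h (adjusted p at most 0.260), and the step from 1 to 3 h without replicate 1 of either time (0.0801). In BEAS-2B cells the 1 h call was lost without any of the 4 arrays behind it (adjusted p up to 0.256). The 3 h call was lost without either control array (up to 0.145) or dust replicate 1 (0.91, adjusted p 0.116). In medium THBD was the 1 gene of the 7 that was lower in BEAS-2B than in THP-1 cells, by -0.72 ± 0.30, short of the threshold (adjusted p 0.0569). It passed without THP-1 control replicate 1 (-1.07, adjusted p 0.0207) and without either BEAS-2B array after 3 h (-0.72, adjusted p 0.0152).

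PLAU, which encodes urokinase (chromosome 10, 73908832 to 73917494), was called higher after 3 h in THP-1 cells and at both times in BEAS-2B cells, with its highest level after 3 h in the former and after 1 h in the latter. In THP-1 cells the signal was 742.3 and 735.2 in medium, 1295 and 1400 after 1 h, and 3772 and 2566 after 3 h, each group above the one before. The signal in BEAS-2B cells was 2528 and 3112 in medium, 8601 and 8289 after 1 h, then 7065 and 4484 after 3 h. There the 1 h arrays were the highest and did not overlap with the 3 h arrays. The THP-1 change was 1.04 ± 0.23 after 1 h, just short of the threshold (adjusted p 0.0541), and 2.35 ± 0.23 after 3 h, or 5.09-fold (1.73e-05). The step between these times was 1.30 ± 0.23 (adjusted p 0.00118). With a replicate block the limma fit called the THP-1 change after 1 h (adjusted p 0.0469).

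The BEAS-2B change of PLAU was 1.77 ± 0.23 after 1 h, or 3.40-fold (adjusted p 0.00288), and 1.01 ± 0.23 after 3 h (0.0298). The step from 1 to 3 h, -0.76 ± 0.23, was not called (0.129), but was without 3 h replicate 1 (-1.15, adjusted p 0.0174). Without that array the 3 h change was 0.62 (adjusted p 0.153), and the 3 h call was also lost without any of the 4 BEAS-2B control and 1 h arrays (up to 0.20). The 1 h call was lost without control replicate 1 (0.0515). The THP-1 change after 1 h passed the threshold, at the same size of 1.04, without any one of the THP-1 3 h arrays (adjusted p 0.0417) or the BEAS-2B 3 h arrays (0.00958). In rising order the 6 group means of PLAU in log2 intensity were 9.42 (THP-1 in medium), 10.47 (THP-1, 1 h), 11.33 (BEAS-2B in medium), 11.77 (THP-1, 3 h), 12.34 (BEAS-2B, 3 h) and 13.10 (BEAS-2B, 1 h). Only the THP-1 and BEAS-2B 3 h arrays overlapped among neighbours (11.56 and 11.98 against 11.95 and 12.73). The difference in medium was 1.90 ± 0.23 (adjusted p 3.16e-05).

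PLAUR, the urokinase receptor (chromosome 19, 43646095 to 43670169), was called higher after 3 h at all 3 probes in each line, and in medium no probe was called different between the lines. At ILMN_2374340 the THP-1 signal was 387.9 and 373 in medium, 450.3 and 676.1 after 1 h, and 1212 and 1312 after 3 h. On the BEAS-2B arrays it was 447.5 and 597.8, 1422 and 2094, and 3141 and 1662. At this probe every dust array lay above both medium arrays of its line. The THP-1 change was 0.77 ± 0.30 after 1 h (adjusted p 0.314) and 2.32 ± 0.30 after 3 h (0.000107). The BEAS-2B change was 1.87 ± 0.30 after 1 h (0.0101) and 2.30 ± 0.30 after 3 h (0.00142).

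Probe ILMN_2408543 gave 202.5 and 174.6 in THP-1 cells in medium, 252.5 and 366.7 after 1 h, and 598.4 and 590.2 after 3 h. Its BEAS-2B signals were 238.5 and 290.2, 805.2 and 941.4, and 1560 and 776.2. The changes were close to those of the probe before: 1.05 ± 0.29 and 2.56 ± 0.29 in THP-1 cells (adjusted p 0.139 and 5.28e-05) and 1.95 ± 0.29 and 2.37 ± 0.29 in BEAS-2B cells (0.00786 and 0.00117).

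The third probe, ILMN_1691508, gave 373.5 and 401.5 in THP-1 cells in medium, 404.1 and 512.5 after 1 h, and 1023 and 1092 after 3 h. In BEAS-2B cells it gave 461.6 and 501 in medium, 704 and 716.1 after 1 h, and 1245 and 1186 after 3 h, and here the 2 arrays after 3 h lay close together. Its change in THP-1 cells was 0.42 ± 0.14 and 2.04 ± 0.14 (adjusted p 0.239 and 1.46e-06). In BEAS-2B cells it was 0.59 ± 0.14 after 1 h (0.0949) and 1.48 ± 0.14 after 3 h (0.000195), below the changes of the other two probes at both times. This probe and ILMN_2374340 carry the transcript accession NM_001005376, and ILMN_2408543 carries NM_002659. The probes share their gene and are not replicates of each other.

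The rise of PLAUR between 1 and 3 h in THP-1 cells was called at each probe, at 1.51 to 1.62 on the log2 scale. In BEAS-2B cells it was called at ILMN_1691508 (0.89 ± 0.14, adjusted p 0.00919), but not without 1 h replicate 1 or 2 (up to 0.0851), and was 0.43 ± 0.30 and 0.42 ± 0.29 at the others. The lines in medium were not called different at any PLAUR probe (0.19 ± 0.14, 0.35 ± 0.30 and 0.49 ± 0.29, BEAS-2B minus THP-1), with 95% intervals of -0.11 to 0.50, -0.31 to 1.00 and -0.16 to 1.15. The last passed without either BEAS-2B array after 3 h (adjusted p 0.0352), as did the THP-1 change after 1 h at that probe (0.0173). All 6 calls after 3 h held without any one array. In BEAS-2B cells without dust replicate 1 they were 1.42, 1.81 and 1.82. The 1 h calls in BEAS-2B cells were lost without either control array or 1 h replicate 2 at ILMN_2374340 (adjusted p up to 0.163), and without any of the 4 arrays behind it at ILMN_2408543 (up to 0.114).

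PLAT, which encodes tissue-type plasminogen activator (chromosome 8), was detected on all BEAS-2B arrays and on 1 THP-1 array, after 3 h. Its signal in BEAS-2B cells was 211.8 and 238.7 in medium, 327.7 and 356.5 after 1 h, and 1341 and 234.4 after 3 h. In deposited signal replicate 2 after 3 h thus lay inside the range of the medium arrays while replicate 1 was the highest of all 12. The bead standard errors of these 2 signals were 62.8 and 13.7, so the gap is far wider than the spread over beads. The fitted change was 0.74 ± 0.63 after 1 h and 1.59 ± 0.63 after 3 h (adjusted p 0.998 and 0.183). Without replicate 1 the change after 3 h was 0.19 (0.761), and without replicate 2 it was 2.98 (5.71e-05). In medium PLAT was at least 2.91-fold higher in BEAS-2B than in THP-1 cells (adjusted p 0.00514).

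In THP-1 cells the PLAT signal was 81.19 and 65.18 in medium, 63.97 and 77.75 after 1 h, and 107.5 and 93.14 after 3 h, of which only the signal of 107.5 was detected. The 3 h arrays lay above all 4 others. The change after 3 h was at least 1.17-fold and was not called (1.20 ± 0.63, adjusted p 0.151). Its error is shared with the BEAS-2B pair: without either BEAS-2B array after 3 h the adjusted p of the same change was 0.000606, and that of the step from 1 to 3 h 0.000664.

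**Figure D3:**
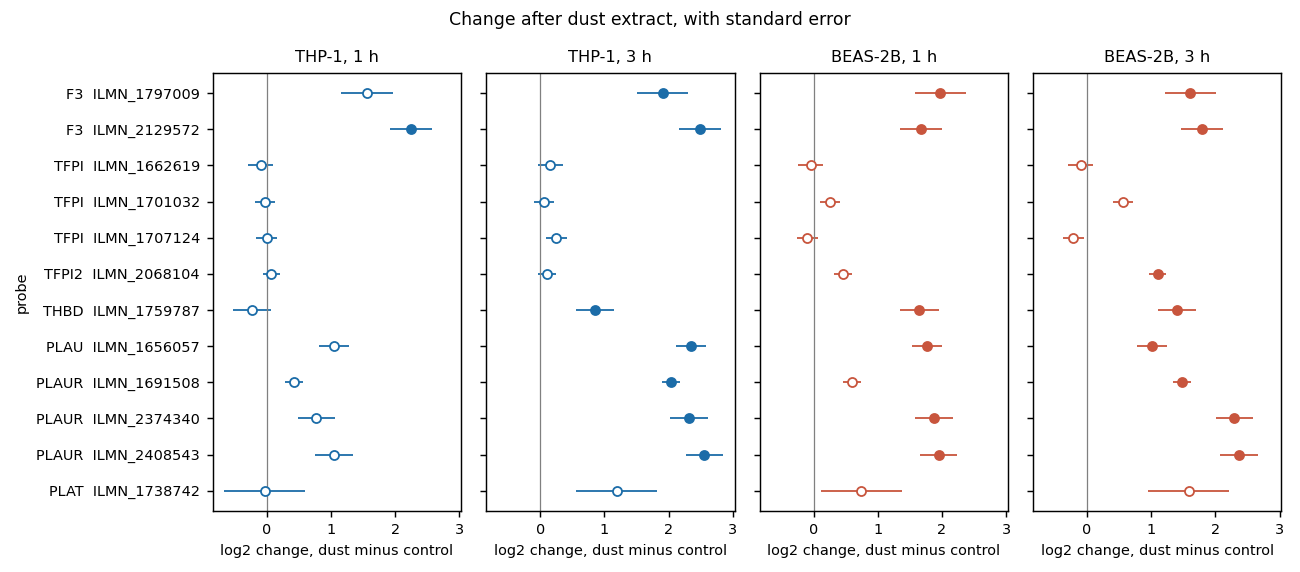
Log2 change after dust extract against medium of the same line (horizontal axes) for the 12 probes (vertical axis), in THP-1 and BEAS-2B cells after 1 and 3 h. Points are limma estimates with their standard error, filled where the adjusted p was under 0.05. The filled points number 1, 7, 6 and 8 from left to right and all lie above 0, and the TFPI probes stay near 0 except ILMN_1701032 in BEAS-2B cells after 3 h (0.56).

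Whether dust acted differently in the lines was tested on the difference of the 2 changes, BEAS-2B minus THP-1. After 1 h none of the 12 probes was called (3 had an unadjusted p under 0.05), against 0.515% of all probes in either direction. The widest difference was that of THBD, 1.88 ± 0.42 (adjusted p 0.126), which passed without either BEAS-2B array after 3 h (0.0222). After 3 h 2 probes were called, against 26.0% of all probes. PLAU rose less in BEAS-2B than in THP-1 cells, by -1.34 ± 0.32 (adjusted p 0.0121), which was -1.73 and -0.95 without BEAS-2B 3 h replicate 1 and 2 and still called. The other was TFPI2, at 1.00 ± 0.19 (0.00384), but its THP-1 signals were all below detection, so this sets the BEAS-2B change against background and not against a measured THP-1 change. The differences at the F3 probes were -0.69 ± 0.46 and -0.30 ± 0.56, with 95% intervals of -1.71 to 0.33 and -1.55 to 0.95. Without BEAS-2B 3 h replicate 1 they were -1.14 and -0.98, and without replicate 2 -0.24 and 0.38, none called. PLAUR probe ILMN_1691508 gave -0.56 ± 0.20 (adjusted p 0.0610), and the other two PLAUR probes -0.02 ± 0.42 and -0.19 ± 0.42. The latter pair gave -0.51 and -0.74 without that replicate 1 and 0.47 and 0.36 without replicate 2, again not called. PLAT gave 0.39 ± 0.89, which was -1.0 (adjusted p 0.0344) without BEAS-2B 3 h replicate 1 and 1.78 (0.00277) without replicate 2.

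Of the partners of plasminogen activation, 7 of 16 kept probes were called after 3 h of dust in THP-1 cells and 3 in BEAS-2B cells. All probes were also called higher more often in THP-1 cells (19.4% against 3.33%). Of 21 genes listed (plasminogen, serpin inhibitors and binding proteins) 19 had a probe and 11, with 16 probes, passed the filter on dim probes; PLG itself did not pass, and the other two listed genes were not analysed here. In THP-1 cells 7 probes of 4 genes were called higher after 3 h (SERPINE2, SERPINI1, ANXA2 and THBS1) and none lower, against 19.4% of all probes called higher and 26.0% lower. In BEAS-2B cells 3 probes of 2 genes (SERPINB8 and SERPINE2) were called higher, against 3.33% of all probes, and none lower. From 1 to 3 h 10 probes of 7 genes were called higher in THP-1 cells, against 16.8% of all probes, and 2 probes of 1 gene in BEAS-2B cells, against 1.43%. After 1 h none was called in either line (2 and 3 had an unadjusted p under 0.05). The median log2 change of the 16 probes after 3 h was 0.55 in THP-1 and 0.21 in BEAS-2B cells, against -0.05 and -0.04 over all probes.

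SERPINE2, an inhibitor of thrombin, urokinase and plasmin, had the widest change. Its THP-1 signal was 161.3 and 224.1 in medium, 206.9 and 290.7 after 1 h, and 8989 and 5871 after 3 h, a change of 5.80 ± 0.31 or 55.8-fold (adjusted p 3.00e-07). Among BEAS-2B arrays it was 1321 and 1647 in medium, 1750 and 2718 after 1 h, and 6033 and 4334 after 3 h, a change of 1.86 ± 0.31 (0.00668), which was 1.56 and no longer called without 3 h replicate 1 (0.0518). The 3 h arrays stood above all others in each line. THBS1, which encodes the matricellular protein thrombospondin 1, was below detection in THP-1 cells in medium (63.5 and 58.81) and after 1 h and was detected after 3 h (379.8 and 338.7), at least 8.77-fold higher (adjusted p 4.21e-08).

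ANXA2, the annexin that binds plasminogen and tissue-type activator at the cell surface, rose in THP-1 cells by 2.67 ± 0.18 and 2.64 ± 0.13 at its 2 probes with the smallest p (adjusted p 1.44e-06 and 1.45e-07). The other ANXA2 probe, ILMN_2409167, rose by 1.25 ± 0.13 (3.24e-05). The changes in BEAS-2B cells after 3 h were 0.53, 0.44 and -0.03 (adjusted p 0.124, 0.0741 and 0.931), short of the threshold. S100A10, its partner, was not called after dust in THP-1 cells after 3 h (0.32 and 0.23). SERPINB8, a serpin of the ovalbumin type, was called in BEAS-2B cells (1.60 ± 0.14 and 1.74 ± 0.19, adjusted p 9.56e-05 and 0.000563) and not in THP-1 cells (0.33 and 0.29). Both SERPINB8 calls held without either BEAS-2B 3 h array (1.57 and 1.72 without replicate 1). The difference of the 3 h changes between the lines was called at 10 of the 16 probes, 8 lower and 2 higher in BEAS-2B cells, against 26.0% of all probes in either direction. The lower ones were SERPINE2 (-3.95 ± 0.44), THBS1 (-4.07 ± 0.24), the 3 probes of ANXA2 (-2.14 ± 0.26, -2.20 ± 0.18 and -1.28 ± 0.19), both of SERPINI1 (-1.21 ± 0.31 and -1.40 ± 0.43) and MRC2, a collagen receptor (-0.97 ± 0.31). The higher ones were the SERPINB8 pair (1.27 ± 0.19 and 1.45 ± 0.27). In BEAS-2B cells MRC2 and SERPINI1 probe ILMN_2207988 were never detected, and the other SERPINI1 probe only on 1 array after 1 h. The differences of these genes thus set a THP-1 change against background. THBS1 was undetected in THP-1 cells in medium, so the size of its difference rests on background there. MRC2 was not called without either BEAS-2B 3 h array (adjusted p 0.0755 and 0.110), nor SERPINI1 probe ILMN_2207988 without replicate 2 (0.107). In medium 9 of the 16 probes were called higher and 6 lower in BEAS-2B cells, against 32.8% and 29.7% of all probes, with THBS1 at least 77.6-fold higher, ANXA2 higher by 3.64 ± 0.13 and S100A10 by 2.80 ± 0.13. The probes of SERPINI1, A2M and MRC2 had passed the filter through THP-1 alone. MRC2 and SERPINI1 probe ILMN_1814333, detected on both THP-1 medium arrays, could hardly lie the other way. A2M and SERPINI1 probe ILMN_2207988 were detected on 1 of the 2 THP-1 medium arrays and passed through THP-1 dust groups.

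Of the clotting factors and the protein C pathway, 2 of 15 probes were called in THP-1 and 4 in BEAS-2B cells after 3 h. Of 32 genes listed 31 had a probe and 11, with 15 probes, passed the filter; factors II, V, VII, IX, X and XI and the fibrinogen chains did not, and F2RL1 was not analysed here. After 3 h 1 probe was called higher and 1 lower in THP-1 cells, against 19.4% and 26.0% of all probes: LMAN1 rose by 0.98 ± 0.19 (adjusted p 0.00179) and MCFD2 changed by -0.80 ± 0.15 (0.00135), which together form the receptor that carries factors V and VIII out of the endoplasmic reticulum. In BEAS-2B cells 3 probes, all of the transglutaminase TGM2, were higher (1.54 ± 0.21, 1.01 ± 0.19 and 0.90 ± 0.19), and 1 of the 2 probes of F2R, the thrombin receptor, was lower, against 3.33% and 2.26% of all probes. That F2R probe, ILMN_1742866, gave 499.2 and 575.5 in medium, 520.1 and 489.6 after 1 h, and 199.8 and 190.3 after 3 h, a change of -1.60 ± 0.13 (adjusted p 8.54e-05). The second F2R probe, ILMN_2221507, read 18396 to 22789 on every array of both lines, far above the first, and gave a change of -0.05. Without BEAS-2B 3 h replicate 1 the F2R change was -1.69 and those of TGM2 were 1.66, 1.28 and 0.78, the last no longer called (adjusted p 0.118). No probe of the list was called after 1 h in either line (1 in THP-1 and 0 in BEAS-2B cells had an unadjusted p under 0.05). The difference of the 3 h changes between the lines was called at 6 of the 15 probes, higher in BEAS-2B cells at 4 (TGM2 and MCFD2) and lower at 2 (LMAN1 and F2R), against 26.0% of all probes. F2R probe ILMN_1742866 was undetected on every THP-1 array. The TGM2 probes were undetected there after dust, only ILMN_1705750 being detected in medium. The F2R and TGM2 differences thus set a BEAS-2B change against background and not against a measured THP-1 change. In medium 6 probes of the list were called higher and 4 lower in BEAS-2B cells, against 32.8% and 29.7% of all probes, with F2R at least 8.23-fold higher at ILMN_1742866 alone (ILMN_2221507 read 18895 and 18531, against 22789 and 19262 in THP-1 cells), TGM2 higher by 2.54 ± 0.21, and F13A1, a factor XIII subunit, at least 7.13-fold lower. F12, F2R probe ILMN_1742866 and TGM2 probes ILMN_1679267 and ILMN_1797236 had passed the filter through BEAS-2B alone, and F8 and F13A1 through THP-1 alone. Of these, TGM2 probe ILMN_1797236 was detected on 1 of the 2 BEAS-2B medium arrays and passed through the 3 h dust group. The others could hardly lie the other way. The count of listed probes called higher in BEAS-2B cells after 3 h was 1 without control replicate 1, and that of probes called lower in THP-1 cells after 3 h was 2 without either THP-1 array of 1 h or 3 h replicate 1.

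**Figure D4:**
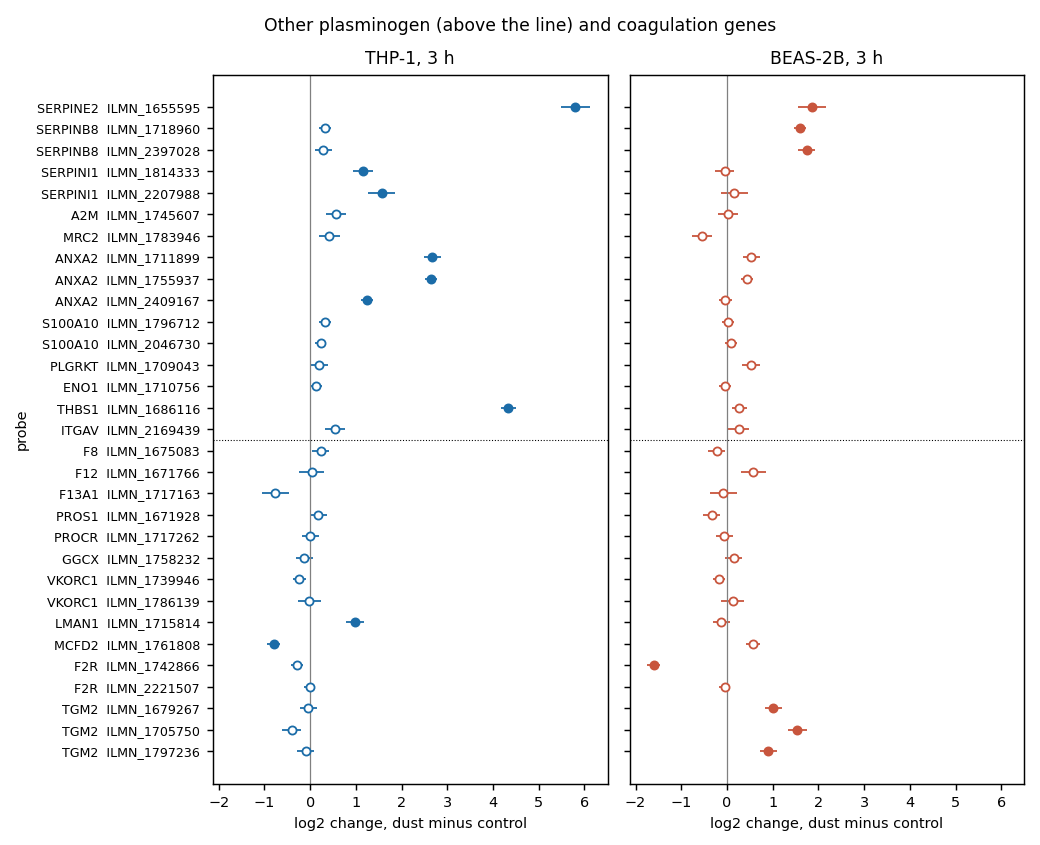
Log2 change after 3 h of dust extract against medium (horizontal axes) for the 31 kept probes of the plasminogen list (above the dotted line) and of the coagulation list (below it), in THP-1 cells (left) and BEAS-2B cells (right). Points are limma estimates with their standard error, filled where the adjusted p was under 0.05. SERPINE2 (5.80) and THBS1 (4.34) lie farthest right in THP-1 cells, and F2R probe ILMN_1742866 (-1.60) lies farthest left in BEAS-2B cells. The THBS1 estimate in THP-1 cells starts from signals below detection in medium.

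The genes most like each member were found by the root mean square difference of their 4 dust changes from those of the member's brightest probe, over the named genes that passed the filter. For F3 these were MIR1275 (0.46), PMAIP1 (0.47) and JUN (0.48), JUN changing by 2.50 and 2.27 in THP-1 and by 1.76 and 0.89 in BEAS-2B cells after 1 and 3 h. For PLAUR they were FOSL1 (0.26), RIPK2 (0.38) and MAFF (0.51), with FOSL1, an AP-1 subunit, at 0.88, 2.51, 2.30 and 2.10 in the same order. For PLAU they were C11orf96 (0.22), SLC25A25 (0.25) and PIM1 (0.32). For THBD they were CLDN1 (0.19), MT1E (0.23) and LAMB3 (0.28). For TFPI2 they were HMGA1 (0.057), CDCP1 (0.076) and CNGB1 (0.079). These are distances over 4 changes that share control arrays, and they carry no test.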

How the data were processed

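Gene expression was measured on 12 arrays. The raw table (GenomeStudio 2011.1, per the submitters' processing notes) holds for each of 47320 probes, per the file headers, the signal and its standard error over beads as intensity on a linear scale, a count of beads and a detection p-value. The deposited p-value was used to correct the background and to call a probe detected (under 0.01). The deposited signals carry no stated background subtraction or scaling. The authors' value table, an intensity on a linear scale, was an alternative only.

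The raw signals were background-corrected and quantile-normalized with neqc of limma 3.58.1 in R 4.3.3 (offset 16), which gives log2 intensities. Probes detected on both arrays of at least 1 group were kept (19045), without choosing 1 probe per gene. Symbols came from the probe annotation (30112 probes with 1 symbol, 8 with several and 17200 with none used here), of which 30073 were brought up to the GRCh38.p14 gene table by Entrez number. Limma (lmFit, eBayes) was fitted with 6 group means over all arrays (6 residual and 4.53 prior degrees of freedom), and p-values were adjusted by Benjamini-Hochberg within each comparison. Where a probe was undetected on every array of 1 group and detected on both arrays of the other, the fold is a bound ("at least"). The dim side was then set at the lowest detected signal of each array.

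The member genes, the 2 pathway lists and the markers were chosen with earlier results of these data known. Named genes were all members, of each list the called probes with the smallest p (up to 4 per dust comparison with control, 3 between controls), and the 3 genes nearest to each called member. SERPINI1, MRC2, the second F2R probe and listed genes given for contrast were named after their values were seen. The fit was tested on simulated data. Alternatives were no background correction, offset 50, median scaling, each line on its own, the authors' table, other filters, 1 probe per gene, a replicate block, and each array left out.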

Additional observations from a re-analysis of the deposited data

Results flagged for a closer look

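The dust effect after 3 h differed between the lines at 2 probes by the test of the difference itself. At TFPI2 it was 1.00 (log2, BEAS-2B minus THP-1, SE 0.19), the BEAS-2B change being 1.10 and the THP-1 change 0.10, between signals below detection, so it sets a BEAS-2B change against background. At PLAU it was -1.34 (SE 0.32), the BEAS-2B change being 1.01 and the THP-1 change 2.35. Line and dose of extract differ together in this comparison and cannot be told apart, and 26.0% of all probes passed the same test.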

How the results depend on the processing

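Over the 108 single-probe results, the processing alternatives left the direction and side of the threshold as they were in 903 cases, ended a call in 21, added one in 15 and turned none. Leaving out 1 array ended a call in 66 cases, added one in 24 and turned 1: PLAT, dust effect after 3 h between the lines, was -1.0 without BEAS-2B 3 h replicate 1 and 1.78 without replicate 2. Of 39 calls, 24 held without any array and under every alternative in which they could be tried. A call was not tried where its probe was absent, as with 1 probe per gene or detection on all 12 arrays. Nor were comparisons between the lines tried with each line on its own. The cause of the shifts above was not tested, except that 1 probe per gene and detection on all 12 arrays (which drops TFPI, TFPI2 and PLAT) leave fewer probes to count.

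Of the member probes, the 1 called higher in THP-1 cells after 1 h became 2 without background correction, with offset 50, with each line on its own, in the authors' value table, with detection on all 12 arrays and with the replicate block, and 0 to 4 without 1 array. With 1 probe per gene the 7 after 3 h became 4, and the 5 from 1 to 3 h became 3. In BEAS-2B cells the 6 after 1 h became 1 with each line on its own, 3 without a filter and 0 to 6 without 1 array, and the 8 after 3 h became 5 without a filter or with 1 probe per gene, and 4 to 9 without 1 array. The 2 higher at 3 h than at 1 h there became 1 under median scaling, detection on all 12 arrays or 1 probe per gene, and 0 to 2 without 1 array, and the 0 lower became 0 to 1. The 0 whose 1 h dust effect was higher in BEAS-2B cells became 0 to 1 without 1 array. After 3 h, the 1 higher became 0 with detection on all 12 arrays and 1 to 2 without 1 array. The 1 lower became 2 without background correction, with offset 50, in the authors' table, with detection on all 12 arrays and with the replicate block, and 1 to 2 without 1 array. Between controls, the 8 higher became 3 with detection on all 12 arrays and 5 with 1 probe per gene, and the 0 lower became 1 with the replicate block and 0 to 1 without 1 array.

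Of the plasminogen list, the 7 probes higher in THP-1 cells after 3 h became 4 with 1 probe per gene. Of the coagulation list, the 1 higher there became 2 without a filter. The 1 lower there became 3 without background correction or in the authors' table, 2 with offset 50, median scaling, no filter or the replicate block, and 1 to 2 without 1 array. In BEAS-2B cells after 3 h the 3 higher became 1 with detection on all 12 arrays or 1 probe per gene and 1 to 4 without 1 array, and the 1 lower became 2 without a filter and 0 with detection on all 12 arrays or 1 probe per gene.

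The replicate numbers in the titles are not stated to pair arrays. Deviations of same-numbered arrays correlated at 0.21 to 0.33 in THP-1 and at -0.09 to 0.19 in BEAS-2B cells. With the replicate block, member probes called higher numbered 2 and 7 in THP-1 and 4 and 8 in BEAS-2B cells after 1 and 3 h. In BEAS-2B cells both F3 calls after 1 h were lost, and after 3 h F3 probe ILMN_1797009 was lost (adjusted p 0.0589) and TFPI probe ILMN_1701032 gained (0.0391). Over all probes 383 were called in THP-1 cells after 1 h against 305. Precision is limited by 2 arrays per group and, for TFPI, TFPI2 and PLAT in THP-1 cells, by signals at background.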
